A study of Mus musculus with 52 samples.

Results

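Promoter accessibility was compared between Kdm2a/b-CXXC fl/fl mouse embryonic stem cells (mESCs) left untreated and the same cells after tamoxifen. The comparison held 8 calibrated ATAC-seq (cATAC-seq) libraries, 4 untreated and 4 tamoxifen-treated, of 52 samples in the series. These 8 were taken from the labels by line and treatment, and all 20633 promoters of the table for this line were kept. Of the 52 samples, 26 were ATAC libraries from 4 conditional lines, and the others were genomic DNA from the same mixtures of nuclei, used by the authors to calibrate the signal. In ATAC-seq the Tn5 transposase cuts and tags DNA that is accessible, and chromatin of Drosophila SG4 cells, added before tagmentation, serves as the reference for scaling.

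Both groups carried the same alleles. In Kdm2a/b-CXXC fl/fl cells, loxP sites flank the sequence for the ZF-CxxC domain in Kdm2a and in Kdm2b, and a CreERT2 recombinase that tamoxifen activates is expressed from Rosa26. Treated cells received 4-hydroxytamoxifen at 800 nM for 96 h, and all cells grew on gelatine in serum with leukemia inhibitory factor. The Kdm2a loxP sites were added by genome editing to the Kdm2b-CXXC fl/fl line, so all values come from 1 edited line with 4 biological replicates per group. No tamoxifen-treated line without loxP sites was used here, so loss of the domains cannot be told apart from exposure to tamoxifen and active recombinase. The promoter intervals did not cover the deleted exons, so the deletion itself was not checked by these values.

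KDM2A and KDM2B bind CpG islands, the stretches of unmethylated CpG-rich DNA found at most mammalian promoters, through their ZF-CxxC domain. Without this domain they no longer occupy these sites. KDM2B brings variant PRC1, a Polycomb complex that ubiquitylates histone H2A, to CpG islands, and the JmjC domain of both proteins removes methyl groups from lysine 36 of histone H3. In mESCs CpG island promoters are accessible also where the gene is weakly transcribed, but the authors state that highly transcribed genes have the more accessible ones.

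The table gave reads over 400 bp at each promoter (mm10), so levels of different promoters were compared over equal lengths. Of the 20633 promoters, 16413 had enough reads to be tested and 4220 did not. The libraries held between 1488370 and 1977010 promoter reads, and the median promoter had 60 to 79. The correlation between any pair of the 8 libraries lay between 0.931 and 0.953 across promoters, which are not independent replicates. Every promoter was read on 2 scales. On the spike-in scale, reads were divided by the size factor from the Drosophila reads, so that a change shared by all promoters is kept. On the relative scale, reads were scaled with TMM so that the bulk of promoters has the same level in every library, and the unit is given as relative reads. A promoter was called at a Benjamini-Hochberg adjusted p under 0.05 in limma together with a fold change over 1.4.

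Because CpG is the sequence that the ZF-CxxC domain reads, it is marked in the promoters on which the results turn. Below are the bases just before the annotated start of 5 genes (GRCm38.p6), written 5′ to 3′ on the strand of the gene, with each CpG in capitals. The Ldb2 stretch runs from position -200 to -14, because annotated exon bases nearer the start were left out. Ldb2 and Otx2 were called lower after tamoxifen and are not CpG-rich. Pdgfa was also called lower and is 1 of 4 called promoters that are CpG-rich. Tor4a was called higher and is not CpG-rich. Prdm14 is shown as the naive pluripotency gene with the smallest p.
Ldb2: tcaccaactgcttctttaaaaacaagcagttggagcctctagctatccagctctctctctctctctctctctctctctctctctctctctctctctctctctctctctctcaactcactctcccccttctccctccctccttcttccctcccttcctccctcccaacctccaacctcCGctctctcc
Otx2: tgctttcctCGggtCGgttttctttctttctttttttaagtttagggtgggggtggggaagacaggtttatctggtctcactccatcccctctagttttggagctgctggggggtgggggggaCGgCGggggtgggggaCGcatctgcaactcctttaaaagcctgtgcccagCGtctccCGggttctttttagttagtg
Pdgfa: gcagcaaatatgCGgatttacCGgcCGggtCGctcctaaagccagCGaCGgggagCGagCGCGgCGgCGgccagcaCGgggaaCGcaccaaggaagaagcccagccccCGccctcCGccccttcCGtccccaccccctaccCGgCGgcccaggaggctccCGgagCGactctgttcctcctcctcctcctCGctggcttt
Tor4a: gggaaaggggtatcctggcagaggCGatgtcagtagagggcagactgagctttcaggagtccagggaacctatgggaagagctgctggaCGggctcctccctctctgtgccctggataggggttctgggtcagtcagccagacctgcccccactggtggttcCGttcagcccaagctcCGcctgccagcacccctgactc
Prdm14: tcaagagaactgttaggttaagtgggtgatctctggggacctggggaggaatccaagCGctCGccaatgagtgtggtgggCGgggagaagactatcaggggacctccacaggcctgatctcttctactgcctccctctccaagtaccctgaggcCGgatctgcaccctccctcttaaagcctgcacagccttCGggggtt

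These stretches are chr5:44799760-44799946 (minus strand) for Ldb2, chr14:48662735-48662934 (minus strand) for Otx2, chr5:138994945-138995144 (minus strand) for Pdgfa, chr2:25196814-25197013 (minus strand) for Tor4a and chr1:13127164-13127363 (minus strand) for Prdm14. CG reads the same on both strands, and 95.5% of all stretches of 200 bases that make up the promoter intervals hold at least 1. Over the whole 400 bp interval, the median promoter held 24 CpG (quartiles 8 and 38). The intervals of Ldb2, Otx2, Tor4a and Prdm14 held 8, 11, 6 and 13 CpG, and that of Pdgfa held 47.

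Whether accessibility moved as a whole was asked on the spike-in scale. For each library, every tested promoter was divided by its untreated mean and the median of these log2 ratios was taken. It was -0.04, 0.04, 0.04 and -0.06 in the untreated libraries, replicates 1 to 4, and 0.41, 0.13, -0.02 and -0.20 in the tamoxifen libraries. The untreated libraries lay close together and the treated ones on both sides of them. The size factors behind these values draw on the matched genomic DNA, and for tamoxifen replicates 2 and 4 one label of that DNA reads untreated while its title reads tamoxifen. The part of this conflict in the values was not tested. The difference between group means was 0.08 (exact two-sided permutation p = 0.629; 4 against 4 libraries cannot go below 0.0286). Leaving out tamoxifen replicate 1 turned it to -0.03, and leaving out tamoxifen replicate 4 gave 0.18. In bulk cells, a lower signal in every cell and a closed promoter in some of the cells cannot be told apart, here and in all values that follow.

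**Figure D1:**
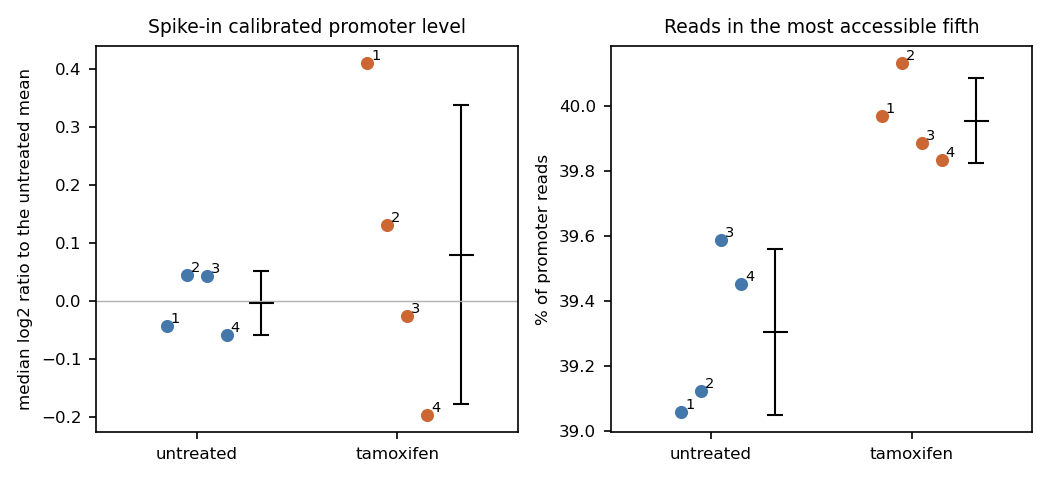
Left, the median log2 ratio of each library to the untreated mean on the spike-in scale. Right, the percentage of promoter reads in the most accessible of 5 groups of tested promoters, on an axis that does not start at 0. Each point is 1 library with its replicate number, and bars show the mean and SD of 4 libraries. On the left the treated libraries, from -0.20 to 0.41, span the untreated ones; on the right all 4 treated libraries, from 39.8% to 40.1%, lie above all 4 untreated ones, from 39.1% to 39.6%.

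Tested promoters were then ordered by their mean reads and cut into 5 groups of equal size, group 1 being the least and group 5 the most accessible. The share of promoter reads in group 5 was 39.1%, 39.1%, 39.6% and 39.5% in the untreated libraries and 40.0%, 40.1%, 39.9% and 39.8% after tamoxifen. All 4 treated libraries lay above all 4 untreated ones, by 0.649 percentage points on average (exact two-sided permutation p = 0.0286, the smallest possible). This quantity was chosen after its values were seen, and over the 12 library quantities computed its adjusted p was 0.343. Without tamoxifen replicate 1 or tamoxifen replicate 2 the exact permutation p was 0.0571. The log2 ratio of reads in group 5 to those in group 1, 3.24 ± 0.0346 untreated and 3.29 ± 0.0790 after tamoxifen (SD, n = 4), differed by 0.06, which was within the spread between replicates (exact two-sided permutation p = 0.257). Without tamoxifen replicate 2 this difference was 0.03 (exact permutation p = 0.486), and without tamoxifen replicate 3 it was 0.09 (exact permutation p = 0.0571).

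A finer cut into 10 groups of equal size, numbered from the least accessible, showed where reads were fewer. In group 3 the treated libraries held 4.35% to 4.47% of reads against 4.50% to 4.61% untreated. In group 4 they held 6.16% to 6.22% against 6.32% to 6.42%, and in group 5 they held 7.96% to 8.13% against 8.18% to 8.26%. At none of these 3 levels did treated and untreated libraries overlap, whereas in group 1 the treated libraries ran from 1.26% to 1.53% and covered the untreated range of 1.33% to 1.43%. Here tamoxifen replicate 3 stood alone above the untreated libraries. The same library had the highest share of reads at the closed promoters of chemosensory receptor genes, 0.191% against 0.147% to 0.154% in the other treated libraries and 0.140% to 0.188% untreated, and the lowest mean GC content of promoter reads, 64.2% against 64.5% to 64.7% in the other 7. The part of these differences in the results was not tested.

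**Figure D2:**
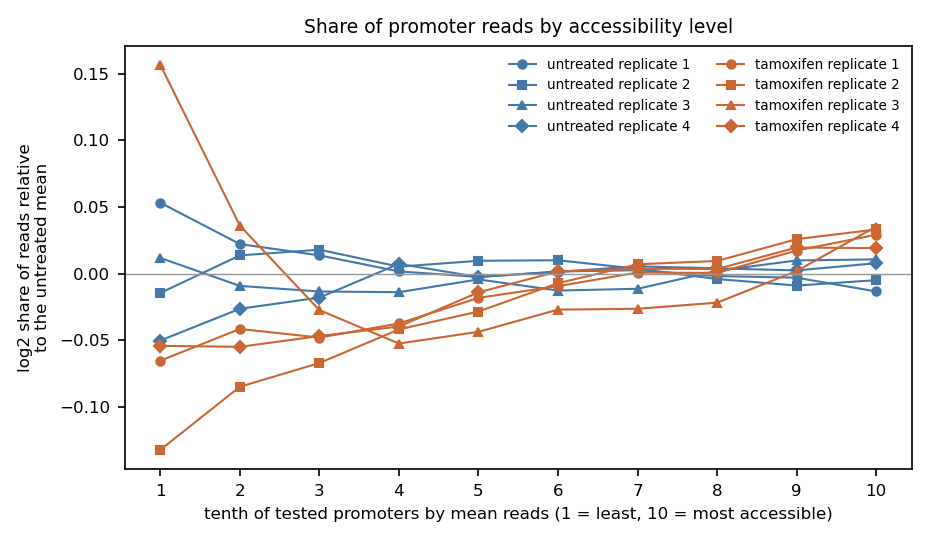
The log2 share of promoter reads in each of 10 equal groups of tested promoters, relative to the untreated mean, ordered from least to most accessible. Each line is 1 library. All 4 treated libraries lie below the untreated ones in groups 3, 4 and 5, and above them in group 10, where their shares were 22.9% to 23.1% against 22.3% to 22.7%. In group 1 tamoxifen replicate 3 is the highest.

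CpG-rich here means GC content from 0.5 upwards with a CpG frequency from 0.6 of that expected by base composition. The median relative log2 change was 0.003 over 11253 CpG-rich promoters and -0.004 over 5160 others. Among CpG-rich promoters the values differed by accessibility level. The 3082 in the most accessible of the 5 groups had a median change of 0.03, and 200 of them were higher at an unadjusted p under 0.05 and 63 lower. The 2036 in group 2 had a median of -0.03, with 78 higher and 153 lower. Over all tested promoters 4.75% were higher and 4.97% lower at this p on the relative scale. The summed share of reads was higher in all 4 treated libraries at the CpG-rich promoters of group 5 and lower in all 4 at those of group 2. These were the only 2 sets without overlap among the 10 formed by level and CpG content. When promoters were cut into 5 groups by GC content instead, the median change in the most GC-rich was -0.03, with 101 higher and 210 lower. The log2 share of reads there relative to the untreated mean was -0.007, -0.02, -0.12 and 0.01 in the treated libraries, so that tamoxifen replicate 3 stood apart, and the groups overlapped.

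On the spike-in scale limma called 0 of 16413 promoters (0%), and edgeR and DESeq2 on the recovered reads also called 0. At an unadjusted p under 0.05, 764 promoters passed (4.65%), 588 higher (3.58%) and 176 lower (1.07%). Treated and untreated libraries did not overlap at 394 promoters (2.4%), with the treated ones above at 1.8% and below at 0.597%. The smallest adjusted p was 0.177, shared by Ldb2, Lhb, Cd80, Tor4a and Bcl6b. Ldb2 had a log2 change of -1.48 (SE 0.34), and Lhb one of 1.30 (SE 0.32). Without tamoxifen replicate 1, 5 promoters were called and all were lower. Without tamoxifen replicate 4, 8 were called, of which 7 were higher.

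Relative to the other promoters, 17 of 16413 were called (0.104%), 11 lower (0.067%) and 6 higher (0.0366%). At an unadjusted p under 0.05 there were 1595 (9.72%), and libraries of the groups did not overlap at 812 (4.95%), 389 higher (2.37%) and 423 lower (2.58%). Of the 17, 14 had groups that did not overlap, the exceptions being Snx10, Evl and Bcl6b. All 17 also passed an unadjusted p under 0.05 on the spike-in scale, in the same direction. Both scales use the same reads of the same libraries, so this was not an independent test. Leaving out untreated replicate 3 reduced the calls to 2, and leaving out tamoxifen replicate 1 to 6. The fits lacking tamoxifen replicate 2 or 4 made 8 calls each, those lacking untreated replicate 1, 2 or 4 made 9 each, and that lacking tamoxifen replicate 3 made 13. With all libraries edgeR called 24 promoters and DESeq2 9.

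Among the 11 lower promoters the median level was 58.6 calibrated reads, and among the 6 higher ones 44.5, against 86.5 over all tested promoters. CpG-rich promoters made up 4 of the 11 lower (Hmx3, Pdgfa, Urgcp and Hacd1) and 0 of the 6 higher, whereas 68.6% of all tested promoters were CpG-rich. Changes over 1.4-fold in either direction were found at 1.45% of CpG-rich and 13.2% of other promoters before any test. The median standard error was 0.13 for CpG-rich promoters and 0.25 for the others.

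The largest fall was at the promoter of Ldb2 (NM_001077398, chr5:44799547-44799946), which encodes an adaptor for LIM-domain transcription factors. It held 28.2, 30.8, 37.4 and 32.1 relative reads in the untreated libraries and 7.79, 11.9, 7.13 and 16.1 after tamoxifen, replicates 1 to 4. Every treated library lay below every untreated one, and the log2 change was -1.56 (SE 0.32, adjusted p = 0.00985). Leaving out each library in turn, Ldb2 was called in 6 of 8 fits.

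Otx2, a homeobox factor of the epiblast and the anterior neural plate, fell at its promoter NM_144841 (chr14:48662673-48663072). The untreated libraries held 42.9, 50.6, 67.3 and 63.2 relative reads and the treated ones 19.9, 15.9, 38.7 and 36.9, without overlap. The log2 change was -1.06 (SE 0.23, adjusted p = 0.0188). Otx2 had 3 tested promoters that share no bases. A second one (NM_001286481) held 27.2, 20.9, 25.2 and 19.7 untreated and 6.06, 15.9, 8.15 and 18.9 after tamoxifen. These groups did not overlap either, with a log2 change of -0.99 (SE 0.34), but the adjusted p was 0.252. The third promoter did not pass an unadjusted p under 0.05. The call at the first promoter was kept in 4 of the 8 fits without 1 library.

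Hmx3, a homeobox gene of the inner ear and hypothalamus and a CpG-rich promoter, held 49.1, 38.7, 48.6 and 42.5 relative reads untreated and 26.0, 31.0, 12.2 and 16.1 after tamoxifen. It fell with a log2 change of -1.12 (SE 0.25, adjusted p = 0.0324). Rffl, which encodes a ubiquitin ligase of endosomal membranes, held 35.5, 33.8, 23.4 and 39.4 untreated and 10.4, 11.1, 17.3 and 12.3 after tamoxifen. Its log2 change was -1.30 (SE 0.30, adjusted p = 0.0398). In both genes the groups did not overlap. The call was kept in 3 of 8 fits without 1 library for Hmx3 and in 1 of 8 for Rffl.

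Pecam1, a cell adhesion molecule of endothelium that mESCs also carry, held 83.6, 64.5, 75.7 and 75.6 relative reads untreated and 53.7, 36.5, 44.8 and 31.2 after tamoxifen. It fell with a log2 change of -0.86 (SE 0.18, adjusted p = 0.0188). LOC666331 went from 46.7 ± 10.7 to 22.9 ± 7.04 relative reads (mean ± SD, n = 4). Its log2 change was -1.02 (SE 0.24, adjusted p = 0.0421). At neither promoter did the groups overlap, and each was called in 3 of 8 fits without 1 library.

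Of the 6 promoters that rose, Tor4a, which encodes an ATPase of the torsin family, had the most reads. It held 86.8, 68.5, 84.1 and 67.3 relative reads untreated and 132, 131, 117 and 126 after tamoxifen (chr2:25196614-25197013). The treated libraries were tightly grouped and all above the untreated ones. The log2 change was 0.72 (SE 0.14, adjusted p = 0.00584), and of the 17 Tor4a was the only one called in all 8 fits without 1 library.

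Lhb, the beta subunit of luteinizing hormone, held 12.5, 14.9, 9.34 and 21.8 relative reads untreated and 39.0, 35.7, 30.6 and 31.2 after tamoxifen. Its log2 change was 1.22 (SE 0.29, adjusted p = 0.0421). Cd80, a ligand by which antigen-presenting cells stimulate T cells, held 16.7, 23.8, 13.1 and 18.6 untreated and 46.8, 30.2, 54.0 and 32.2 after tamoxifen. Its log2 change was 1.12 (SE 0.26, adjusted p = 0.0421). The non-coding gene AI197445 held 18.8, 33.8, 31.8 and 32.1 untreated and 56.3, 58.0, 57.1 and 46.4 after tamoxifen. It rose with a log2 change of 0.91 (SE 0.22, adjusted p = 0.0421). All 3 had groups without overlap and all 3 were called in only 1 of 8 fits without 1 library.

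**Figure D3:**
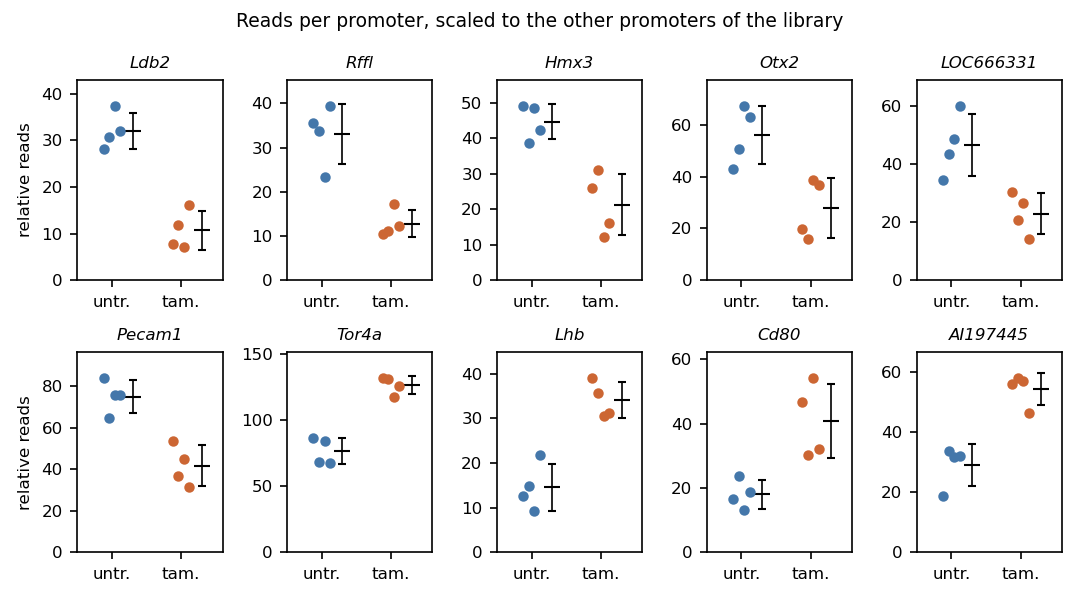
Relative reads at the 6 promoters that fell most and the 4 that rose most among called promoters with groups that do not overlap. Blue points are the 4 untreated (untr.) and orange points the 4 tamoxifen (tam.) libraries, with the mean and SD beside them, and every axis starts at 0. In Ldb2 the untreated libraries lie between 28.2 and 37.4 and the treated ones between 7.1 and 16.1, whereas in Tor4a the treated libraries, between 117 and 132, lie above the untreated ones.

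The remaining 7 called promoters were chosen for naming after their values were seen. Urgcp held 144, 148, 129 and 178 relative reads untreated and 113, 86.6, 79.5 and 93.7 after tamoxifen, a log2 change of -0.68 (SE 0.13, adjusted p = 0.00584). It was called in 7 of 8 fits without 1 library. Rims2, a scaffold protein of the presynaptic active zone, held 71.1, 95.3, 85.0 and 84.9 untreated and 45.0, 53.2, 39.8 and 47.3 after tamoxifen (log2 change -0.85, adjusted p = 0.00985). Its other tested promoter, which shares no bases with the first, had a log2 change of -0.59 (unadjusted p = 0.000173). Pdgfa, a growth factor chain of the platelet-derived family, Snx10, a sorting nexin of endosomes, and Hacd1, an enzyme of very-long-chain fatty acid synthesis, fell with log2 changes of -0.77, -0.68 and -0.63. Evl, a regulator of actin filaments, and Bcl6b, a transcriptional repressor, rose with log2 changes of 0.89 and 0.84. The other promoter of Evl had a log2 change of -0.32 (unadjusted p = 0.00980), opposite in sign to the called one. Of the fits without 1 library, Rims2 was called in 6 of 8, Pdgfa, Snx10, Evl and Bcl6b in 2 each and Hacd1 in 0.

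Promoter function was described through 33 gene lists on the relative scale. A list has no test of its own here, and its values are to be read beside those over all tested promoters. There the median was 0.001, with 8249 above and 8164 below 0. At an unadjusted p under 0.05, 4.75% of all tested promoters were higher and 4.97% lower, and 2.37% were higher and 2.58% lower without overlap of the groups. These values depend on the accessibility level. In the second least accessible of the 5 groups, at a median of 51.5 calibrated reads, the median change was -0.03. There 4.36% were higher and 8.19% lower at this p, and 2.25% and 3.90% without overlap. The lists were not matched for level.

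The naive pluripotency list holds genes of the pluripotency network of mESCs, among them Pou5f1, Sox2 and Fgf4. Of 22 tested promoters 14 lay below 0 and 8 above, with a median log2 change of -0.11. None was called, but 7 were lower and 0 higher at an unadjusted p under 0.05, where 4.97% of all tested promoters were lower and 4.75% higher. The 7 were Prdm14, Nanog, Fgf4, Klf2, Pou5f1, Tfcp2l1 and Gdf3, of which the first 2 and Klf2 were named by rule and the others after their values were seen. Without tamoxifen replicate 1 the median was -0.05, with 6 lower and 2 higher at this p.

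Prdm14, a repressor that guards the naive state, held 70.0, 66.5, 72.0 and 67.3 relative reads untreated and 45.0, 34.2, 54.0 and 32.2 after tamoxifen. The groups did not overlap, with a log2 change of -0.75 (SE 0.19, adjusted p = 0.0639). Nanog, a core factor of the network, held 75.3, 91.4, 129.9 and 118 untreated and 60.6, 67.5, 82.6 and 61.5 after tamoxifen. The groups overlapped by 1 pair of libraries, and the log2 change was -0.58 (SE 0.15, adjusted p = 0.0958). Both missed the threshold in the main analysis. The Prdm14 promoter NM_001081209 passed it without tamoxifen replicate 3 (limma adjusted p = 0.039) and the Nanog promoter NM_001289831 by edgeR (adjusted p = 0.0475) and without untreated replicate 1 (limma adjusted p = 0.0333). Fgf4, the growth factor through which mESCs leave the naive state, held 121, 108, 125 and 151 and then 90.0, 87.4, 90.7 and 98.4, without overlap (log2 change -0.45, adjusted p = 0.145). Klf2 (-0.32), Pou5f1 (-0.46), Tfcp2l1 (-0.30) and Gdf3 (-0.28) had overlapping groups. Among mESC markers without an unadjusted p under 0.05, not all of which are given, log2 changes were 0.17 at Sox2, 0.22 at Zfp42, 0.07 at Klf4 and -0.27 at Esrrb. That of Klf4 was -0.02 without untreated replicate 2.

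**Figure D4:**
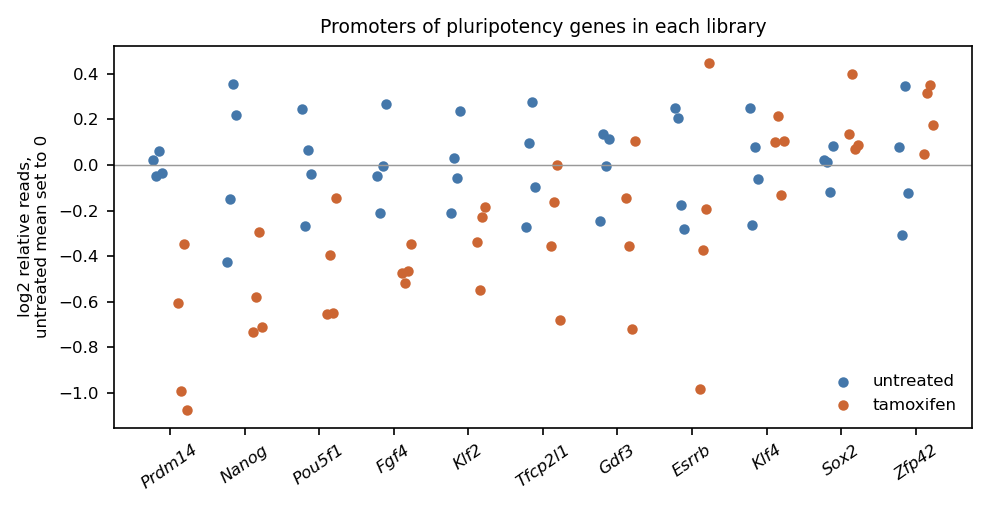
Log2 relative reads of each library at promoters of 11 pluripotency genes, with the untreated mean of each promoter set to 0. Shown are the 7 with an unadjusted p under 0.05, all lower, and Esrrb, Klf4, Sox2 and Zfp42, picked without a rule. The whole list had 22 tested promoters, 14 below 0 and 8 above, so that falling promoters are over-represented here. Blue points are the 4 untreated and orange points the 4 tamoxifen libraries. At Prdm14 and Fgf4 all treated libraries lie below all untreated ones, whereas at Klf4, Sox2 and Zfp42 the groups overlap and the treated ones lie mostly above 0.

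Markers of cell identity were examined beside these values. The 11 promoters of 10 mESC markers had a median level of 85.7 calibrated reads, and 6 of them lay above the median of all promoters. The 9 promoters of 8 fibroblast markers had a median of 16.3 and none lay above that median, and of 8 promoters of 6 primitive endoderm markers 2 did. Summed over each list, mESC markers held 953 to 1128 calibrated reads untreated and 856 to 1173 after tamoxifen, fibroblast markers 157 to 195 and 127 to 230, and primitive endoderm markers 298 to 371 and 256 to 425. In each list the treated range covered the untreated one. These sums are on the spike-in scale, whereas the pluripotency values above are on the relative scale. On the spike-in scale the median log2 ratio over all tested promoters ran from -0.20 to 0.41 after tamoxifen and from -0.06 to 0.04 untreated. That treated range also covered the untreated one, so the marker sums cannot show whether these lists changed relative to other promoters. The part of other cell types in the pluripotency values was not tested.

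Genes of the formative and primed states, which follow the naive state in the epiblast, had the lowest median of the lists of development except trophoblast. The 21 tested promoters belong to 16 genes, with 3 at Otx2 alone, and those of 1 gene are counted separately. Of the 21, 16 lay below 0, with a median log2 change of -0.17, and 1 (Otx2) was called. At an unadjusted p under 0.05 there were 4 lower and 0 higher. Their summed share of promoter reads was 0.0965%, 0.0960%, 0.0993% and 0.0990% untreated and 0.0897%, 0.0885%, 0.0864% and 0.0929% after tamoxifen. No treated library reached the lowest untreated one, which held for 1 of 33 lists. Without untreated replicate 3 the median was -0.10, and with a correction for GC content it was -0.09. Over the 12 promoters with a mean of at least 50 reads it was -0.07, with 1 lower at an unadjusted p under 0.05. Beside the Otx2 promoters given above, the lower ones were Zic2, a zinc finger factor of the primed epiblast, and Cdh2, the neural cadherin. Zic2 held 93.0, 101, 117 and 111 relative reads untreated and 92.6, 66.7, 65.2 and 63.4 after tamoxifen (log2 change -0.56, adjusted p = 0.0958). Cdh2, chosen after its values were seen, had a log2 change of -0.59 (adjusted p = 0.277).

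Among regulators of other lineages the median log2 change was -0.17 over 13 trophoblast promoters, -0.10 over 14 of primitive endoderm, -0.09 over 16 of primitive streak and mesoderm and 0.00 over 22 of neural fate, and none of these promoters was called. Elf5, a trophoblast factor, held 20.9, 23.8, 27.1 and 18.6 relative reads untreated and 5.19, 15.9, 6.12 and 9.46 after tamoxifen, without overlap (log2 change -1.32, adjusted p = 0.103). In the neural list, 4 of 22 promoters were higher and 2 lower at an unadjusted p under 0.05, against 4.75% and 4.97% of all tested promoters. Among these were Pax7, with a log2 change of -0.54, and Pax6, with one of 0.37. Without untreated replicate 1 or tamoxifen replicate 3 the trophoblast median was -0.10 or -0.11. That of primitive endoderm was -0.06 without untreated replicate 3. That of primitive streak and mesoderm ran from -0.18 without untreated replicate 3 to -0.04 without untreated replicate 2, and was -0.009 over the 6 promoters with at least 50 reads. The neural median took either sign, from -0.06 without tamoxifen replicate 4 to 0.05 without tamoxifen replicate 3.

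Homeobox genes outside the Hox clusters, many of them Polycomb targets in mESCs, gave 76 of 122 tested promoters below 0 and a median of -0.08. At an unadjusted p under 0.05, 11 were lower and 5 higher, and Otx2 and Hmx3 were called. The treated libraries lay below all untreated ones at 11 of the 122 and above them at 2, against 2.58% and 2.37% of all tested promoters. The median level of the list was 51.2 calibrated reads. In the second least accessible of the 5 groups, at a median of 51.5, 8.19% were lower and 4.36% higher at this p. Without overlap there were 3.90% lower and 2.25% higher in that group. Otx2 is counted in this list and in the formative list. Without tamoxifen replicate 1 the median was -0.04, with 9 lower and 5 higher, and without tamoxifen replicate 3 or untreated replicate 3 it was -0.04 or -0.05. Members without a call included Vax1 (-0.71) and Onecut2 (-0.78), and Gbx2 (0.35) on the other side. All 3 were chosen after their values were seen, and their groups did not overlap. The 41 Hox promoters had a median of 0.00, with 3 higher and 0 lower at an unadjusted p under 0.05, and Hoxc13 had the smallest p among them (log2 change 0.36).

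No promoter was called among the complexes that the KDM2 proteins belong to or work with. Promoters of variant PRC1 (18 tested) had a median of 0.007, of canonical PRC1 (12) -0.04, of PRC2 (12) -0.07 and of KDM2 and other ZF-CxxC proteins (12) -0.001. Single libraries decided these medians. That of PRC2 was -0.01 without untreated replicate 4 and -0.11 without untreated replicate 2. The others took either sign in fits without 1 library, from -0.06 (untreated replicate 2) to 0.06 (untreated replicate 4) for variant PRC1, from -0.10 (untreated replicate 3) to 0.04 (tamoxifen replicate 3) for canonical PRC1 and from -0.06 (tamoxifen replicate 2) to 0.08 (tamoxifen replicate 3) for ZF-CxxC proteins. Kdm2a held 88.9, 107, 92.5 and 112 relative reads untreated and 119, 134, 107 and 131 after tamoxifen, with overlap (log2 change 0.29, SE 0.13, adjusted p = 0.453). Kdm2b had log2 changes of 0.02 (SE 0.13) and 0.19 (SE 0.24) at its 2 promoters in the table, the first of which was -0.12 without untreated replicate 3. Fbxl19, which encodes another F-box protein with this domain, had a log2 change of -0.51 (adjusted p = 0.475). In PRC2, Phf19, an accessory subunit that binds methylated H3K36, held 52.3, 63.5, 54.2 and 50.8 untreated and 32.03, 40.5, 37.7 and 31.2 after tamoxifen. Its groups did not overlap, and the log2 change was -0.63 (SE 0.20, adjusted p = 0.189). Fbxl20, an F-box protein gene, and Fosl2, an AP-1 factor gene, had log2 changes of 0.12 (SE 0.12) and 0.24 (SE 0.23).

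Immediate early genes, which growth factors and stress switch on within minutes, had a median of 0.14 over 20 tested promoters, with 5 higher and 0 lower at an unadjusted p under 0.05 and none called. The 5 were Junb (0.42), Fosl1 (0.38), Atf3 (0.35), Fos (0.34) and Btg2 (0.26), of which the last 3 were named after their values were seen. At Fos the untreated libraries held 77.4, 92.3, 85.0 and 102 relative reads and the treated ones 104, 118, 115 and 113, without overlap. The smallest adjusted p was 0.282, at Junb. Without untreated replicate 1 the median was 0.05, with 3 higher, and without tamoxifen replicate 4 it was 0.09.

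Interferon response genes and sensors of viral nucleic acid had the lowest median, -0.21 over 21 tested promoters. None was called, and 5 were lower and 1 higher at an unadjusted p under 0.05. Ddx58, the sensor RIG-I, held 56.4, 38.7, 48.6 and 42.5 relative reads untreated and 30.3, 21.4, 34.7 and 22.7 after tamoxifen. Its log2 change was -0.76 (adjusted p = 0.148). Zbp1, a sensor of left-handed nucleic acid, held 28.2, 23.8, 25.2 and 20.7 untreated and 9.52, 16.7, 19.4 and 3.78 after tamoxifen. Its log2 change was -1.13 (adjusted p = 0.157). At both genes the groups did not overlap. Ifih1, the related sensor MDA5, was chosen after its values were seen and had a log2 change of 0.48. Over the 8 promoters of the list with a mean of at least 50 reads the median was -0.09, with 4 above and 4 below 0, and without untreated replicate 4 the median over all 21 was -0.14.

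Among housekeeping promoters the median was 0.02 over 74 cytosolic ribosomal protein promoters, 0.02 over 90 of oxidative phosphorylation, 0.03 over 36 of the proteasome, 0.01 over 49 of RNA polymerase II and its initiation factors and 0.04 over 19 of glycolysis, with 0 called. Rps15, a ribosomal protein, had the smallest p among these (log2 change 0.41, adjusted p = 0.127). The most accessible promoters with a symbol, Smarcd2, Ift122 and Eif4a1, had log2 changes of 0.12, 0.07 and 0.04 with a standard error of 0.07 each. The summed share of 5 replication-dependent histone promoters was higher in all 4 treated libraries, 0.0404% to 0.0444% against 0.0360% to 0.0391%, and the median change was 0.16. H2ac1 had a log2 change of 0.33, without overlap of the groups (adjusted p = 0.465).

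Of the imprinted genes 2 are named by rule. Zim1, an imprinted zinc finger gene, held 124, 130.1, 144 and 149 relative reads untreated and 98.7, 84.2, 106 and 99.3 after tamoxifen. The log2 change was -0.49 (SE 0.13, adjusted p = 0.0958). Grb10, an imprinted adaptor of growth factor receptors, held 89.9, 78.4, 67.3 and 57.0 and then 122.9, 96.1, 107 and 102. The log2 change was 0.56 (SE 0.15, adjusted p = 0.0958). At both the groups did not overlap, and over the 34 imprinted promoters the median was -0.02. Zfp genes (302 tested, median 0.007), F-box genes (60, 0.00), Wnt ligands and receptors (52, -0.007), genes of the TGF-beta, BMP and Nodal pathways (54, -0.07), protocadherins (34, 0.08) and germline genes (26, 0.08) held 0 called promoters. Without 1 library the germline median ran from 0.03 (untreated replicate 2) to 0.18 (tamoxifen replicate 2) and that of protocadherins was 0.03 (tamoxifen replicate 3), and over the 13 protocadherins with at least 50 reads it was -0.03. That of the TGF-beta, BMP and Nodal pathways was -0.11 without tamoxifen replicate 2. Of 541 chemosensory receptor promoters, closed in these cells, 17 had enough reads to be tested.

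**Figure D5:**
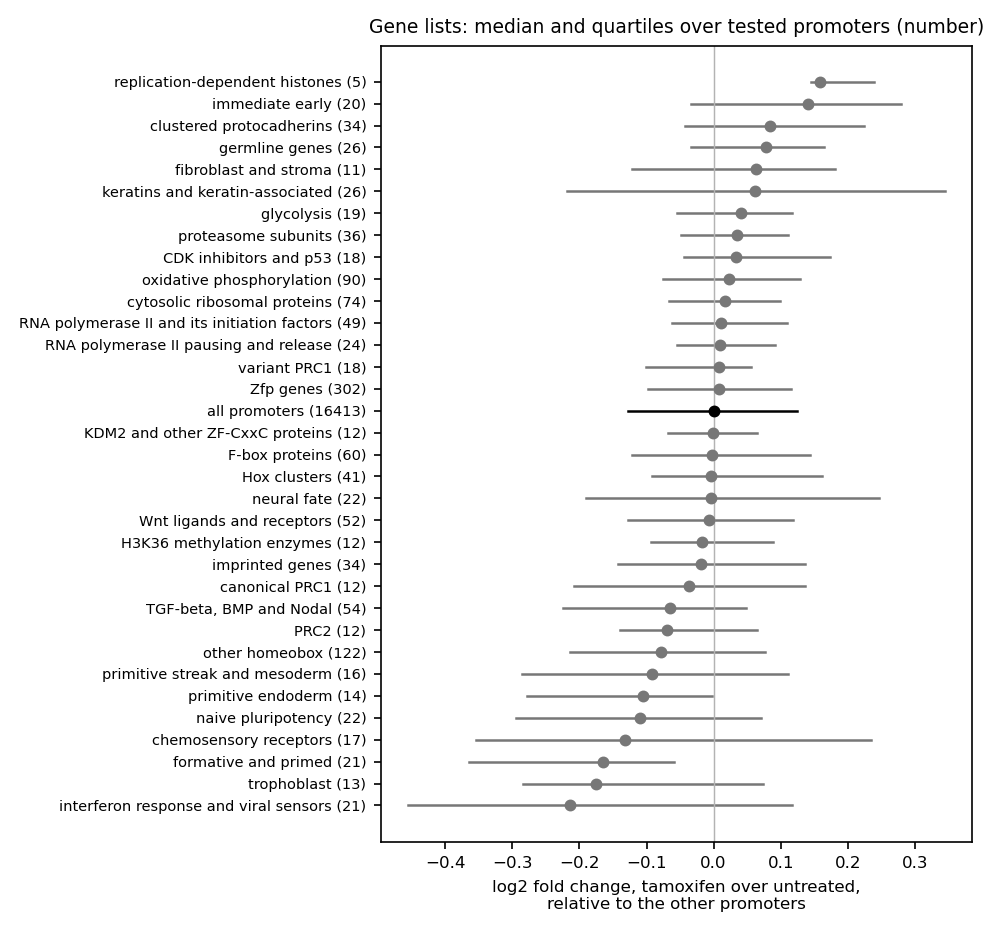
The median (point) and quartiles (line) of the log2 change after tamoxifen on the relative scale for the tested promoters of each list, with their number in parentheses. All tested promoters are in black. The medians run from -0.21 for interferon response genes to 0.16 for the 5 histone promoters, and the medians of ribosomal proteins, oxidative phosphorylation, the proteasome and RNA polymerase II lie between 0.01 and 0.03.

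In the other lines, fitted in their own tables, some of the promoters above, picked without a rule, were set beside these values. The difference was not tested. At Otx2 the relative log2 change was -0.68 (SE 0.19) in Kdm2b-CXXC, -0.01 (SE 0.20) in Kdm2a-CXXC and 0.03 (SE 0.26) in Kdm2a/b-JmjC. At Prdm14 it was -0.50 (SE 0.16), 0.09 (SE 0.22) and -0.04 (SE 0.22) in the same order, and at Nanog -0.30 (SE 0.15), 0.01 (SE 0.17) and 0.12 (SE 0.23). At Urgcp it was -0.22 (SE 0.11), -0.27 (SE 0.15) and -0.34 (SE 0.16), and at Tor4a 0.24 (SE 0.15), 0.12 (SE 0.13) and -0.16 (SE 0.18). None of these had an adjusted p under 0.05 in those lines. The median over the formative and primed list was -0.01 in Kdm2b-CXXC, -0.05 in Kdm2a-CXXC and 0.05 in Kdm2a/b-JmjC. That over the naive pluripotency list was -0.07, 0.005 and 0.02 in the same order.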

How the data were processed

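Promoter ATAC-seq signal was taken from the deposited table of the Kdm2a/b-CXXC line. The authors aligned paired-end reads to mm10 and dm6 with Bowtie2, removed duplicate, multiply mapped, mitochondrial and blacklisted reads with SAMtools, counted reads over 400 bp promoter intervals and divided each library by a DESeq2 size factor from Drosophila reads that had been corrected by the matched genomic DNA. Tool versions are not given in the sources used here. The tables also hold the authors' pooled mean, log2 fold changes, standard errors, statistics and p-values, which were not used. Dividing each column by its smallest step recovered whole reads for 100% of values (tolerance 0.01 reads).

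Promoters with few reads were left out with filterByExpr. On both scales, log2(value + 1) was fitted with limma 3.58.1 (trend) in R 4.3.3, after TMM in edgeR 4.0.16 for the relative scale. Because 1 was added before taking logs, the fold change of promoters with few reads is understated. A call needed a fold over 1.4 and an adjusted p under 0.05. All adjusted p-values are limma's Benjamini-Hochberg values over the 16413 tested promoters unless another tool is named, and library quantities were compared with exact permutation tests. The scripts were tested on simulated data. Alternatives were edgeR, DESeq2 1.42.0 (both on recovered reads), other pseudocounts, filters and scalings, a GC correction, a replicate block and leaving out each library. The alternatives for the share of reads in the most accessible promoters were chosen after seeing the data.

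The rule for naming promoters was Kdm2a, Kdm2b, Fbxl20 and Fosl2, on each scale up to 6 called promoters with the largest rise and 6 with the largest fall whose groups did not overlap (where none was called, the 2 with the smallest p), from each list the 2 with the smallest p and the one with the most reads, and the 5 most accessible promoters. The lists, the rule and the tests were chosen with earlier results of these data known. Of 20633 promoters 20450 were paired with a symbol. Sequences are RefSeq GRCm38.p6, read with pysam 0.24.0.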

Additional observations from a re-analysis of the deposited data

Results flagged for a closer look

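Among 136 groups of 4 libraries examined, 5 held 1 library far from the other 3 by Dixon's criterion, where chance gives about 1 group in 20. At AI197445 untreated replicate 1 was the lowest of its group with 18.8 relative reads, and tamoxifen replicate 4 the lowest of its group with 46.4. At the Kdm2b promoter NM_001003953 tamoxifen replicate 2 was the highest with 36.5 relative reads. At Zic2 tamoxifen replicate 1 was the highest of the treated libraries with 92.6 relative reads, just below the lowest untreated one with 93.0. The share of reads at chemosensory receptor promoters was 0.191% in tamoxifen replicate 3, above the other treated libraries.

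At 2 named promoters every treated library moved one way in the Kdm2a/b-CXXC line and the opposite way in the Kdm2a-CXXC line, whose table was normalized separately. The log2 change of Fosl1 was 0.38 here and -0.36 there, and that of Pecam1 -0.86 here and 0.42 there. The difference between lines was not tested.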

How the results depend on the processing

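The number of promoters called relative to the others was 7 with no filter on low values, 8 with a minimum mean of 50 reads and 9 by DESeq2, against 17 in the main analysis, and it ranged from 2 to 13 when each library was left out. It was 24 by edgeR. On the spike-in scale the calls ranged from 0 to 8 over the fits without 1 library. The shift of all promoters was -0.0016 after TMM scaling (exact permutation p = 0.286) and -0.0079 when scaled to total promoter reads (exact permutation p = 0.0286), both of which remove a shared shift by construction, and it ranged from -0.026 to 0.18 without 1 library. The tamoxifen minus untreated difference in the log2 ratio of the most to the least accessible promoters was -0.018 with no filter (exact permutation p = 0.914), and the cause was not tested. The change of the Kdm2b promoter NM_013910 ranged from -0.12 to 0.11 and that of the Klf4 promoter NM_010637 from -0.016 to 0.16 without 1 library. The share of reads in the most accessible promoters was higher after tamoxifen by 0.575 percentage points when ranked by the other 3 lines, 0.460 for the top of 10 groups and 0.622 with no filter. Other values, of single promoters, lists and that share, kept their direction and side of the threshold or stayed within the replicate spread in 1128 recomputations, fell below a threshold in 107, passed one in 7 and moved beyond the spread in 18. The 1128 include promoters without a call in the main analysis that stayed without one. They therefore do not describe how stable the calls were, for which the fits without 1 library are given at each called promoter.

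The untreated and treated libraries share only a replicate number: the correlation of deviations between same-numbered libraries was 0.0071, -0.0057, 0.028 and 0.039. With the replicate number as a block, 23 promoters were called relative to the others and 0 on the spike-in scale, and p was 0.75 for the shift and 0.375 for the level ratio (exact sign-flip tests). The Prdm14 promoter NM_001081209 had an adjusted p of 0.0433 with the block, 0.0383 with the block and a GC correction and 0.039 without tamoxifen replicate 3. The Nanog promoter NM_001289831 had one of 0.0475 by edgeR and 0.0333 without untreated replicate 1.

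The median standard error of a relative log2 change was 0.39 in the least accessible of 10 groups and 0.10 in the most accessible. Over all tested promoters it was 0.20 on the spike-in scale and 0.15 on the relative scale.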

Other observations

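Of 556 genes with several tested promoters that share no bases, 127 had a promoter with an unadjusted p under 0.05 relative to the other promoters, and 15 had 2 such promoters. Both were lower in 9 of these genes, both higher in 3 and opposite in 3. Where a gene had more than 2 promoters, those with the smallest p were taken. At this p 9.72% of all tested promoters passed, 4.75% higher and 4.97% lower. These are shares of single promoters. A gene with several promoters has more than 1 chance to pass, so they are not a background for the 127 genes. Plec, which encodes the cytoskeletal linker plectin, had log2 changes of 0.76 and 0.69. These belong to the 2 promoters with the smallest p of 4 tested that share no bases. Lifr, the receptor through which leukemia inhibitory factor keeps mESCs in culture, had -0.48 and -1.05. Capn5, a calpain protease gene, had -0.53 and -1.03. All of these genes were named after their values were seen.

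By chromosome, the summed share of promoter reads did not overlap between groups for 6 of 21 chromosomes, lower after tamoxifen for 1, 6, 12 and X and higher for 15 and 17. Chromosome 1 held 5.27% to 5.42% of reads in the treated libraries and 5.45% to 5.50% in the untreated ones. The median relative log2 change of a chromosome lay between -0.04 and 0.04.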
